A study of Mus musculus with 13 samples.

Results

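The Hox genes were taken from the deposited count table as every row whose symbol is Hoxa, Hoxb, Hoxc or Hoxd followed by a number only. This gave 39 of 24470 genes: 11 in the Hoxa cluster, 10 in Hoxb, 9 in Hoxc and 9 in Hoxd. All libraries came from E14, a mouse embryonic stem cell line of 129/Ola background kept undifferentiated in serum medium with leukemia inhibitory factor. In the low-input protocol, which reads chromatin and mRNA from the same cells, Tn5 transposase cut open chromatin in permeabilized cells, the lysate was split with oligo(dT) beads, and the DNA and the captured polyadenylated RNA became an ATAC library and an mRNA library. Experiment 1 held such pairs from 10000 and 20000 cells, and experiment 2, on another day, held pairs from 5000, 10000 and 20000 cells. For reference, 1 library each from 5000, 10000 and 50000 cells was made by Omni-ATAC, a widely used ATAC protocol, with no RNA. This left 5 mRNA libraries and 8 ATAC peak lists, with no treatment, genotype or differentiation step to compare. No source used here says whether the libraries of a day came from separate cultures, so the p-values measure the spread between these libraries only.

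Hox genes encode homeodomain transcription factors that give cells their position along the head-to-tail axis of the embryo. They lie in clusters, and their order along the chromosome matches the order in which they are switched on, from the low-numbered anterior genes to the high-numbered posterior ones. In pluripotent cells the clusters are the classic example of chromatin held silent but ready by Polycomb complexes, which mark it with H3K27me3 while Trithorax-type enzymes add H3K4me3 at the same promoters; retinoic acid and caudal factors activate them as cells differentiate.

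Total counts ran from 13727122 to 20426252, so that 3 counts, taken here as the limit for a count of 0, correspond to 0.147 to 0.219 CPM (counts relative to all counts of that library). The summed level of 10 embryonic stem cell markers lay between 3526 and 3681 CPM in all 5 libraries, although edgeR called 2 of the 10 higher and 1 lower in experiment 2 than in experiment 1. Zfp42 rose by 0.38 and Klf4 by 0.42, and Utf1 fell by 0.57 on the log2 scale (edgeR adjusted p = 0.028, 0.038 and 0.0014). Markers of other cell types were lower: 12 fibroblast markers, taken as a sign of feeder-like cells, summed to 36.6 and 37.7 CPM in experiment 1 and to at most 15.5 CPM in experiment 2, mostly from Thy1, while Col3a1 and Lum were at 0 in every library. Primitive endoderm markers summed to 14.3 and 9.03 CPM in experiment 1 and to between 1.91 and 2.45 CPM in experiment 2, mesoderm markers to between 1.68 and 2.39 CPM. Neural progenitor markers summed to 22.7 and 19.8 CPM in experiment 1 and to 31.4, 32.8 and 37.5 CPM in experiment 2, with no overlap. What part these differences have in the values of Hox genes and of their regulators was not tested.

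Promoters of 4 Hoxd genes are printed here to show which bases next to a start were called open in low-input libraries, with the bases inside a low-input peak in capitals. The 4 are those of the 22 Hox genes with a promoter sequence in the RefSeq table (GRCm38.p6, the mm10 assembly) that held any such base. Each line gives the 250 bases upstream of a start in that promoter table, which for Hoxd10 is not the start of the longest RefSeq span, 5′ to 3′ on the plus strand, at chr2:74762730-74762979 for Hoxd1, chr2:74691641-74691890 for Hoxd10, chr2:74697513-74697762 for Hoxd9 and chr2:74667975-74668224 for Hoxd13.
Hoxd1: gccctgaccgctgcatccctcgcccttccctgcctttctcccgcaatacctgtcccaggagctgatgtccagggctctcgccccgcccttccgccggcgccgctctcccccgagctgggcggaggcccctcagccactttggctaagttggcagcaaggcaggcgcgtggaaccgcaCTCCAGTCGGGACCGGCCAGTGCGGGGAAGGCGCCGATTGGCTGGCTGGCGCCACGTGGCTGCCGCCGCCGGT
Hoxd10: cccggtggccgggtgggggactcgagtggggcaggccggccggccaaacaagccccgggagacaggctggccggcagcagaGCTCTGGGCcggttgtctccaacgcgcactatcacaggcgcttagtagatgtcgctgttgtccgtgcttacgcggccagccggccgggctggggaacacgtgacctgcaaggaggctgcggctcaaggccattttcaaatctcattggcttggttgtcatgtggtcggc
Hoxd9: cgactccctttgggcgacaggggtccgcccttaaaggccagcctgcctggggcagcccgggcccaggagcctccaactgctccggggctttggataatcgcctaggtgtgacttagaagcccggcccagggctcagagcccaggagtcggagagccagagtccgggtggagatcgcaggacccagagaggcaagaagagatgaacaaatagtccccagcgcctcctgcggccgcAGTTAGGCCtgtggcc
Hoxd13: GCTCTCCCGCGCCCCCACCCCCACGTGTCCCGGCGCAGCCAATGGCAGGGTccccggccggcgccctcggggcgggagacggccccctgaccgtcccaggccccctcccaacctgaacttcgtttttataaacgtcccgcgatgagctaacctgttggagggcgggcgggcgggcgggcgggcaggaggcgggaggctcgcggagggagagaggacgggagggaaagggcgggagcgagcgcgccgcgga
The capitals of Hoxd9 and Hoxd13 come from the 20000-cell list of experiment 2 alone, as do those of Hoxd1 beyond 9 bases that the 10000-cell list of experiment 1 and the 5000-cell list of experiment 2 also held; those of Hoxd10 were in the 3 lists of experiment 2. In Hoxd1 the capitals cover 73 bases next to the start, in Hoxd10 9 bases from 161 to 169 bp upstream, in Hoxd9 9 bases from 8 to 16 bp upstream, and in Hoxd13 51 bases from 200 to 250 bp upstream. Hoxb1, the earliest Hoxb gene to be switched on in embryos, is shown as a contrast from the list with the most peaks. Its capitals mark the 152 bases inside a peak called by Omni-ATAC in 50000 cells, within chr11:96365508-96365757, and no low-input list had a peak there.
Hoxb1: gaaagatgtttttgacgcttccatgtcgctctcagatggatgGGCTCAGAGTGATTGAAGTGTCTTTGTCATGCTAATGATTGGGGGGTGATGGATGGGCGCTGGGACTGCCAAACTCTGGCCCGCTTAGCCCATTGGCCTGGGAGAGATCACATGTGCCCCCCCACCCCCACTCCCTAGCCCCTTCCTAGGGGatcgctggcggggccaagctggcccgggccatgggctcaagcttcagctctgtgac
The 24 promoter entries of Hox genes were rich in CG dinucleotides, with a median of 12.5 in 250 bases and a range of 2 to 35, against a median of 6.0 over 32851 promoters of all genes. Their median GC content was 58.6%, against 52.4% over all promoters. On either strand, 10 of 24 (41.7%) held GGGCGG, the letters of a GC box, against 32.7% of all promoters. The TATA box letters, TATAAA, stood in 4 of 24 (16.7%) against 12.4%. These letter strings share no stretch with each other, and a match describes the sequence only.

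Hox mRNA was close to the limit of detection. Summed over the 39 genes, counts were 56 in the 10000-cell and 120 in the 20000-cell library of experiment 1, and 106, 100 and 111 in the libraries from 5000, 10000 and 20000 cells of experiment 2. As CPM these were 4.08 (exact 95% binomial interval 3.08 to 5.30), 8.03 (6.66 to 9.60), 6.32 (5.18 to 7.65), 6.45 (5.25 to 7.84) and 5.43 (4.47 to 6.54), with intervals that cover counting error only. The lowest library was the 10000-cell one of experiment 1 and the highest the 20000-cell one of the same day, so the libraries of experiment 2 fell between the 2 of experiment 1. Of the 39 genes, 8 had no count in any library (20.5%, against 18.7% of all 24470 genes), and 7 reached 10 counts in at least 1 library (17.9%, against 59.1% of all genes). In these bulk libraries, few cells with much Hox RNA and many cells with little cannot be told apart, and counts are not scaled to gene length, so genes are not ranked by level.

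**Figure D1:**
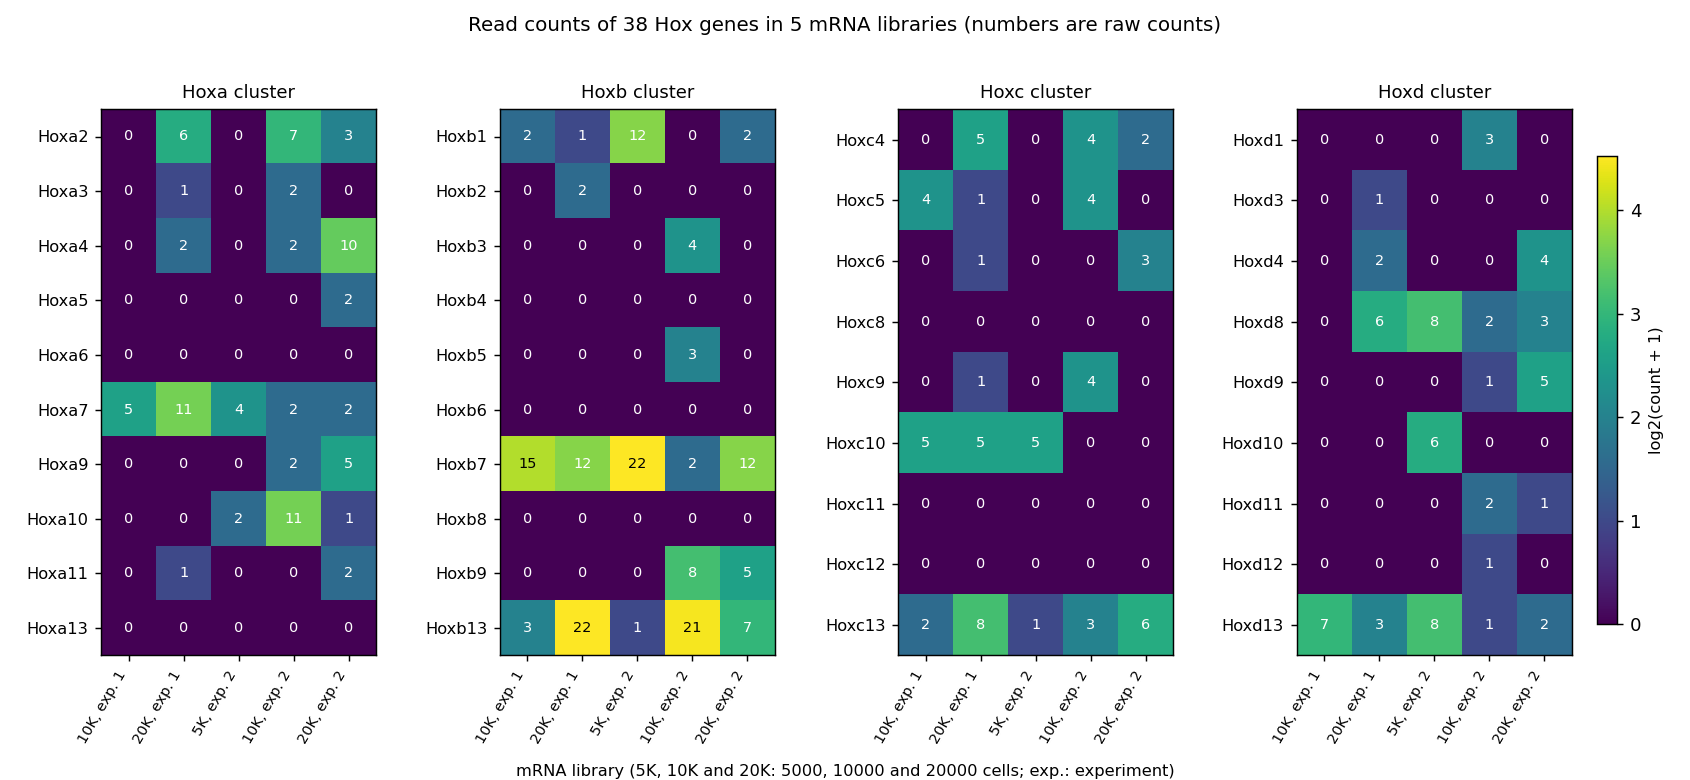
Raw read counts of 38 Hox genes (rows, by cluster) in the 5 mRNA libraries (columns, by cell number and experiment); colour is log2(count + 1) and the printed numbers are the counts. Most squares are at 0 or a few counts, and no Hoxc or Hoxd gene reaches 10.

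In the Hoxa cluster, Hoxa7, a trunk-patterning gene, had 5 and 11 counts in the libraries from 10000 and 20000 cells of experiment 1, and 4, 2 and 2 in those from 5000, 10000 and 20000 cells of experiment 2. Its high value was the 20000-cell library of experiment 1. Hoxa4, which patterns the cervical region, reached 10 counts in the 20000-cell library of experiment 2 and had 0 to 2 elsewhere. Hoxa10, a posterior gene, reached 11 counts in the 10000-cell library of experiment 2 and had 0 to 2 elsewhere. Both were thus carried by 1 library each. Hoxa6 and Hoxa13 had no count in any library.

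In the Hoxb cluster, Hoxb7, a trunk-patterning gene, had 15 and 12 counts in experiment 1 and 22, 2 and 12 in experiment 2. Its low value was the 10000-cell library of experiment 2. Hoxb13, the most posterior gene of its cluster and separated from Hoxb9 by a long gap, had 3 and 22 counts in experiment 1 and 1, 21 and 7 in experiment 2. Its high libraries differed in cell number and in day, and the other 3 lay at or below 7. Hoxb1, needed for the identity of hindbrain rhombomere 4, had 12 counts in the 5000-cell library and 0 to 2 in the other 4. Hoxb4, Hoxb6 and Hoxb8 had no count in any library.

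No Hoxc and no Hoxd gene reached 10 counts, and their summed counts over 5 libraries were 64 and 66, against 207 for Hoxa and 156 for Hoxb. In Hoxc, 6 of 9 genes had a count somewhere and Hoxc8, Hoxc11 and Hoxc12 had none. All 9 Hoxd genes had at least 1 count, though never above the 8 of Hoxd8 and Hoxd13. Hoxc13, a gene of hair and nail formation, had 2 and 8 counts in experiment 1 and 1, 3 and 6 in experiment 2. Over all clusters, 6 genes had a count in every library, and a count of 1 or more was seen for 9, 20, 11, 22 and 20 genes in the libraries as ordered above. The 10000-cell library of experiment 1 and the 5000-cell library of experiment 2 thus showed the fewest Hox genes.

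**Figure D2:**
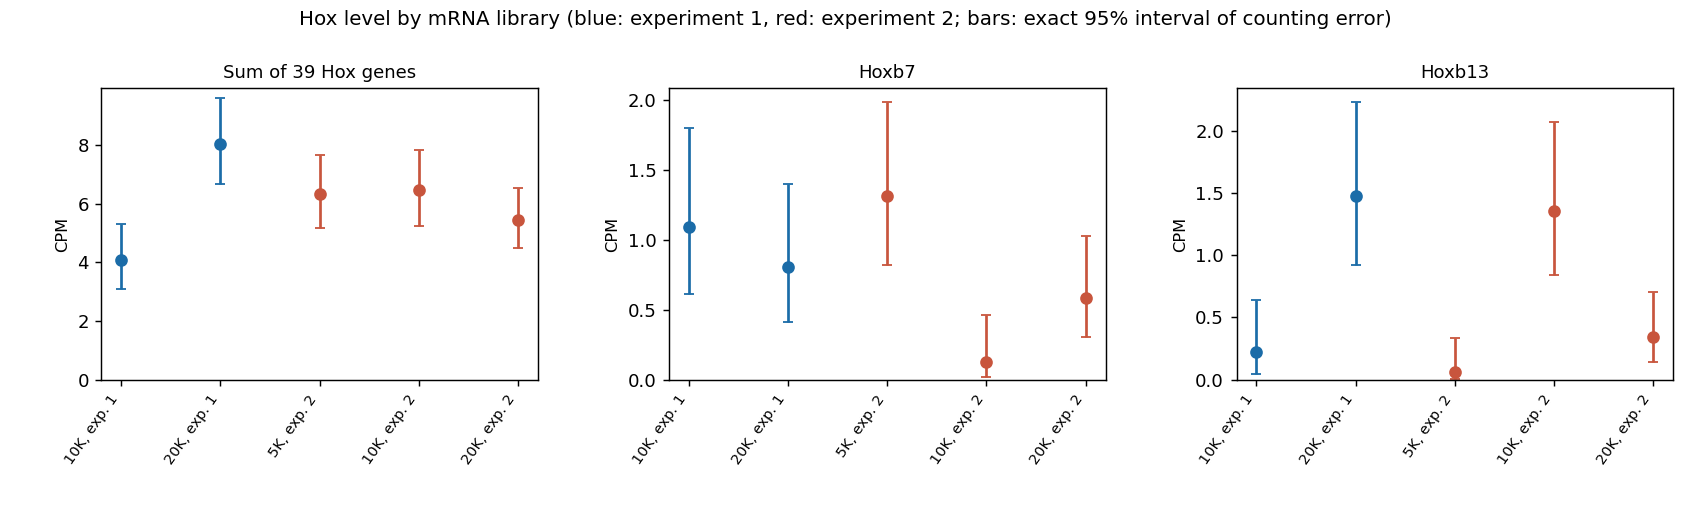
CPM by mRNA library (x axis; blue, experiment 1; red, experiment 2) for the sum of 39 Hox genes and for Hoxb7 and Hoxb13; points are single libraries and bars exact 95% intervals of counting error. From 10000 to 20000 cells, the sum, Hoxb7 and Hoxb13 each move in opposite directions in the 2 experiments.

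Experiment 2 was compared with experiment 1 over the libraries from 10000 and 20000 cells, which both days have. Of the 39 genes, 3 passed the filter on low counts, Hoxb7 and Hoxb13 among them, and none changed by edgeR's quasi-likelihood test at an adjusted p below 0.05, where 12.5% of 12523 genes did. Among those 3 genes, 0 had an unadjusted p below 0.05. DESeq2 called 0, but gave no adjusted p for Hoxb7 and Hoxb13. Hoxb7 was at 1.09 and 0.803 CPM in experiment 1 and at 0.129 and 0.587 CPM in experiment 2, and these ranges did not overlap, as for 53.9% of all genes tested. The 5000-cell library of experiment 2, outside this fit, was above them all at 1.31 CPM. Its log2 difference was -1.34 ± 1.04 (SE, 2 libraries a group, edgeR adjusted p = 0.459), became -0.41 with all 5 libraries and ranged from -2.78 to -0.68 when leaving out 1 library. Hoxb13 was at 0.219 and 1.47 CPM in experiment 1 and at 1.35 and 0.343 CPM in experiment 2, and the groups overlapped. It differed by -0.02 ± 0.99 (edgeR adjusted p = 0.994). The standard errors were near or above a log2 unit, so changes of that size, and well above it, could go uncalled at this depth. With no filter on low counts, 30 Hox genes entered the fit and edgeR called 0, against 8.54% of 19632 genes.

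The comparison of 20000 with 10000 cells, over the same 4 libraries, also called none of the 3 Hox genes (edgeR, background 0.0%), with 0 at an unadjusted p below 0.05 and 0 by DESeq2. Hoxb7 stood at 0.803 against 1.09 CPM in experiment 1 and at 0.587 against 0.129 CPM in experiment 2, and Hoxb13 at 1.47 against 0.219 CPM and at 0.343 against 1.35 CPM. For both genes the groups overlapped, whereas for 23.3% of all genes tested they did not. The log2 difference of Hoxb7 was 0.18 ± 1.16 and that of Hoxb13 0.16 ± 1.19 (SE, both edgeR adjusted p = 0.999). With the experiment as a block, edgeR called 0 of the 3 Hox genes (background 0.0319%). Without the block and with no filter on low counts it called 0 of 30 (background 0.0102%).

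Of 20 other genes inside the cluster windows, each running 20000 bp beyond the first and last Hox gene, 3 reached 10 counts in a library and 8 had none. Hotairm1, a non-coding RNA of the Hoxa cluster, had 23 and 31 counts in experiment 1 and 22, 39 and 30 in experiment 2. It was thus detected at 1.31 to 2.52 CPM in every library. Gm53, in the gap between Hoxb9 and Hoxb13, had 16 and 16 counts in experiment 1 and 12, 20 and 18 in experiment 2. Hoxd3os1, antisense to Hoxd3, had 13 counts in the 5000-cell library and 0 in the other 4. Hottip and Hotair, non-coding RNAs known for binding chromatin regulators, had 4 counts each in the 10000-cell library of experiment 2 and 0 elsewhere. Whether strand was used in counting is not given in the sources used here, and 10 Hox genes overlap another gene of the table, so their counts and those of their overlapping partners are uncertain. Hoxa3 overlaps Hoxa4, Hoxa5 and Hoxa6, and Hoxd3 overlaps Hoxd4.

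Chromatin was read as the authors' peak intervals, which hold no height or score. The 4 windows span 651.962 kb (mm10), among them chr11:96174361-96388253 for Hoxb, chr15:102901131-103056852 for Hoxc and chr2:74648310-74785142 for Hoxd. In experiment 1, 15 peaks lay in them in the 10000-cell list and 14 in the 20000-cell list. In experiment 2 there were 12, 17 and 48 in the lists from 5000, 10000 and 20000 cells. The Omni-ATAC lists held 2, 16 and 121 in the order 5000, 10000 and 50000 cells. The 20000-cell list of experiment 2 thus stood well above the 20000-cell list of experiment 1, and 50000-cell Omni-ATAC above all others. The longer of these lists are also longer everywhere, with 49508 and 95457 peaks in all against 9097 to 31207 in the other 6.

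Relative to list length, the windows still held more peaks per base than the chromosomes as a whole. The ratio of peak density was 3.24 and 2.11 in experiment 1, 2.63, 2.32 and 3.95 in experiment 2, and 0.897, 2.09 and 5.17 for Omni-ATAC from 5000, 10000 and 50000 cells. Only the 5000-cell Omni-ATAC list, with 2 peaks, was below 1. Relative to genes the direction was the opposite: the windows hold 0.241% of the genes of the count table on 0.0245% of the chromosome span, and each of the 8 lists had a smaller share of its peaks there, from 0.0220% to 0.127%. As a share of the list, the windows held 0.127% (exact 95% binomial interval 0.105 to 0.151%) of the 50000-cell Omni-ATAC peaks and 0.0518% (0.0283 to 0.0869%) of those of the 20000-cell list of experiment 1. Many Hox peaks were minimal in width. Intervals of 9 bp, the shortest any list holds, made up between 34.7% and 100% of the peaks in the windows, against 24.4% to 59.2% of the whole lists, and in each of the 8 lists the share was higher in the windows.

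More cells gave more Hox peaks in 6 of 7 pairs of lists of the same protocol and experiment. This did not pass an exact permutation test of cell numbers within protocol and experiment (two-sided p = 0.167 over 72 arrangements, where the smallest possible p is 0.0278). The exception was experiment 1, with 15 peaks from 10000 cells and 14 from 20000 cells. Counting only intervals of 50 bp or more gave 2 and 5 in experiment 1, 3, 5 and 14 in experiment 2 and 0, 2 and 59 for Omni-ATAC, and then all 7 pairs rose (exact permutation p = 0.0278). Covered length likewise rose in 7 of 7 pairs, from 457 to 835 bp in experiment 1, through 837, 880 and 2432 bp in experiment 2, and through 18, 592 and 12373 bp for Omni-ATAC. The whole lists also lengthened with cell number in all 7 pairs, so these trends are not particular to the Hox windows. As a share of the list, 5 of 7 pairs rose (exact permutation p = 0.5). The number of ATAC reads per library is not known here and may differ along with cell number; the effects of the 2 cannot be told apart.

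**Figure D3:**
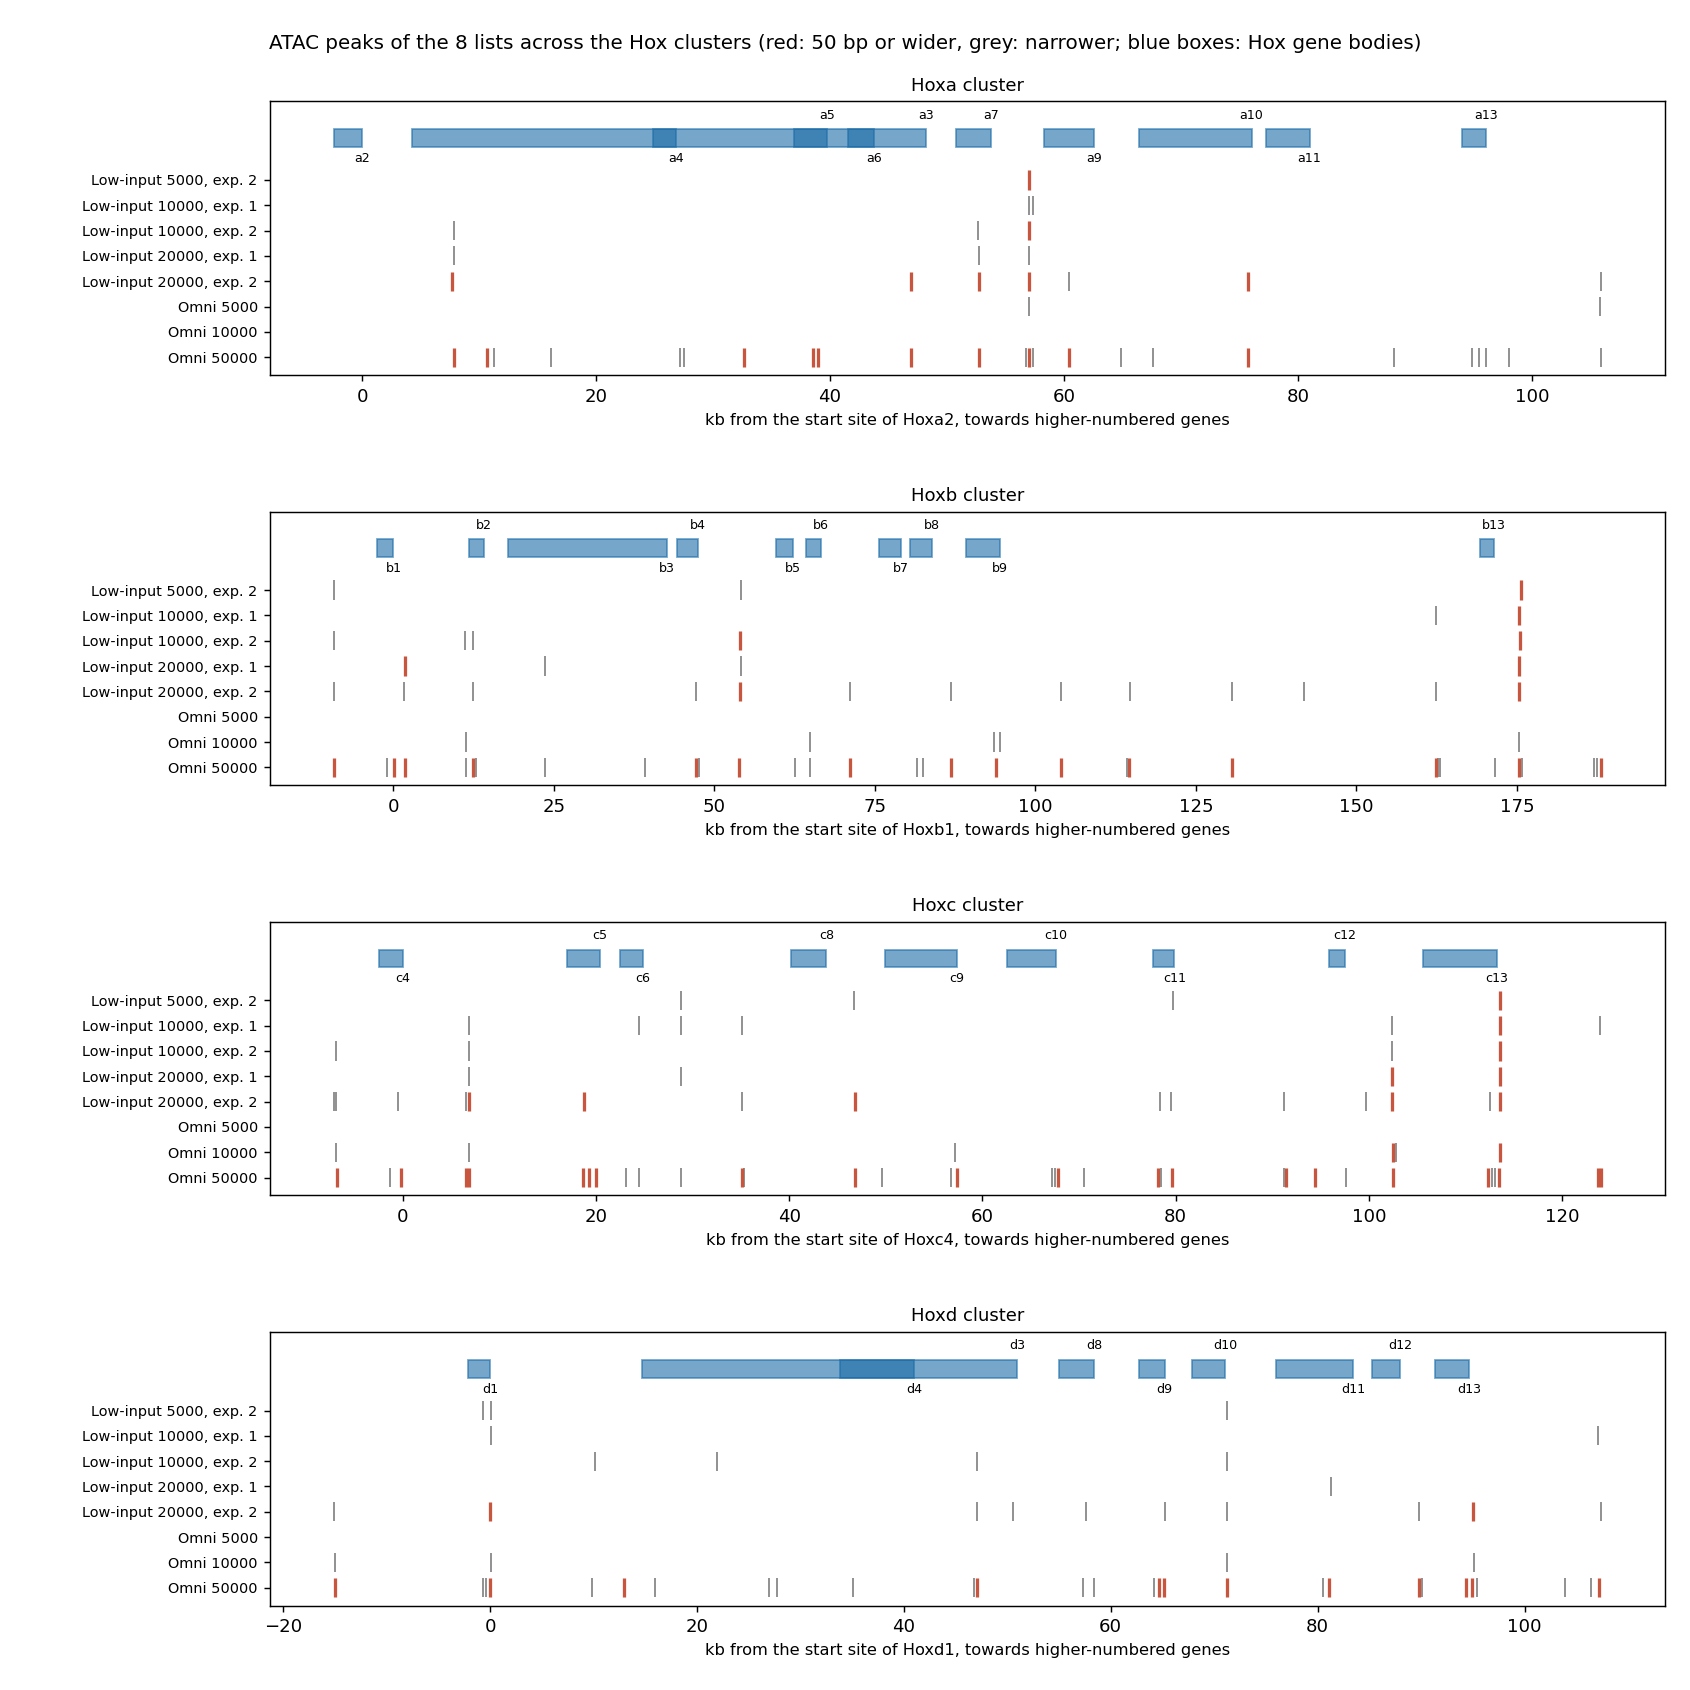
Peaks of each of the 8 ATAC lists (rows) along the 4 Hox clusters, as distance in kb from the start site of the lowest-numbered gene shown; red ticks are peaks of 50 bp or more, grey ticks narrower ones, ticks are of fixed thickness, blue boxes are Hox gene bodies, and the Hoxa map begins at Hoxa2. A few positions recur in most lists, such as Hoxc13 and the site beyond Hoxb13, while many positions have a tick in the 50000-cell Omni-ATAC row only.

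Joining peaks at most 100 bp apart gave 132 sites in the windows. Of these, 70 (53.0%) were found only in the 50000-cell Omni-ATAC list, against 44.0% of 103746 sites made the same way over the whole genome. Sites in 5 or more of the 8 lists numbered 9 (6.82%, against 18.9% genome-wide), and none was in all 8 (5.04% genome-wide). Of the 58 sites in any low-input list, 48 were also in the 50000-cell Omni-ATAC list. The 9 recurrent sites divided into 4 within 1000 bp of a Hox start and 5 that lay 3178 to 6832 bp from the nearest one, all 5 outside every gene body of the table. All 9 were in the 50000-cell Omni-ATAC list and 1 was in the 5000-cell one.

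The recurrent site at the start of Hoxc13, chr15:102920655-102921139, was in 7 lists. Its interval measured 220 and 287 bp in experiment 1, 283, 297 and 304 bp in experiment 2, and 297 and 485 bp in Omni-ATAC from 10000 and 50000 cells. In the low-input lists it ended 166 to 174 bp before the start of the gene. It was thus wide and at the same place in all 5 low-input lists, whatever the cell number. The site at Hoxd10, chr2:74691480-74692046, was 9 bp wide in the 3 lists of experiment 2, 19 bp in Omni-ATAC from 10000 cells and 567 bp from 50000 cells, and in no list of experiment 1. That at Hoxd1, chr2:74762894-74763080, was 9 bp wide in the 10000-cell list of experiment 1, 9 and 174 bp in the 5000- and 20000-cell lists of experiment 2, and 9 and 128 bp in Omni-ATAC.

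Between genes, 2 sites were in 7 lists. The first was chr6:52221751-52221901, 3178 bp upstream of Hoxa7 and between Hoxa7 and Hoxa9, where the Hoxa cluster passes from central to posterior genes. It measured 9 and 9 bp in experiment 1, 106, 106 and 141 bp in experiment 2, and 9 and 151 bp in Omni-ATAC from 5000 and 50000 cells. It was the recurrent site that the 5000-cell Omni-ATAC list held. The other was chr11:96189980-96190584, 3777 bp upstream of Hoxb13, which measured 97 and 156 bp in experiment 1 and 367, 119 and 163 bp in experiment 2. In 6 lists each were chr15:102931614-102932130, 4723 bp upstream of Hoxc12 towards Hoxc13, and chr15:103027506-103027563, 6832 bp upstream of Hoxc4. In 5 lists was chr11:96311684-96312039, 6228 bp upstream of Hoxb4 and between Hoxb5 and Hoxb4, which was absent from the 10000-cell list of experiment 1. These distances are from the starts of the count table: measured on the longest RefSeq spans, which begin at 103018097 for Hoxc4 and at 96307101 for Hoxb3, the site near Hoxc4 lies within Hoxc4 and that between Hoxb5 and Hoxb4 within Hoxb3. In the authors' unified list 7 regions lay in the windows, 3 in Hoxa, 2 in Hoxb, 2 in Hoxc and 0 in Hoxd, and 6 of the 9 recurrent sites overlapped one. It marked the starts of 3 Hox genes, Hoxa7 and Hoxc13 among them, against 33.2% of all gene starts.

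Start sites of Hox genes were less often marked by a peak than those of genes at large in low-input lists, and about as often in the longest list. A peak within 1000 bp was present at 4 and 3 of 39 Hox starts in experiment 1 (all genes 31.1% and 37.4%), and at 5, 3 and 13 in experiment 2 (31.1%, 40.5% and 50.3%). For Omni-ATAC the numbers were 0, 7 and 24 (18.6%, 41.5% and 61.1%). The 50000-cell Omni-ATAC list thus marked 61.5% of Hox starts. In that list, genes under 10 counts in every library had a start peak in 25.6% of cases. The share was 85.7% for genes with 10 or more counts and 89.7% for a list of 39 other homeobox genes of development. None of these sets was matched to Hox genes in expression. Of Hox genes 17.9% reached 10 counts in a library, and of the 39 other homeobox genes 11 did. In the 20000-cell list of experiment 2 the shares were 33.3% for Hox genes, 15.2%, 74.7% and 48.7% for these other sets. In the remaining low-input lists the Hox share was 7.69% to 12.8%, and that of genes under 10 counts 6.20% to 9.92%. The other homeobox genes were at 23.1% to 38.5% in these lists. These shares are descriptions of lists, since genes are not replicates.

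**Figure D4:**
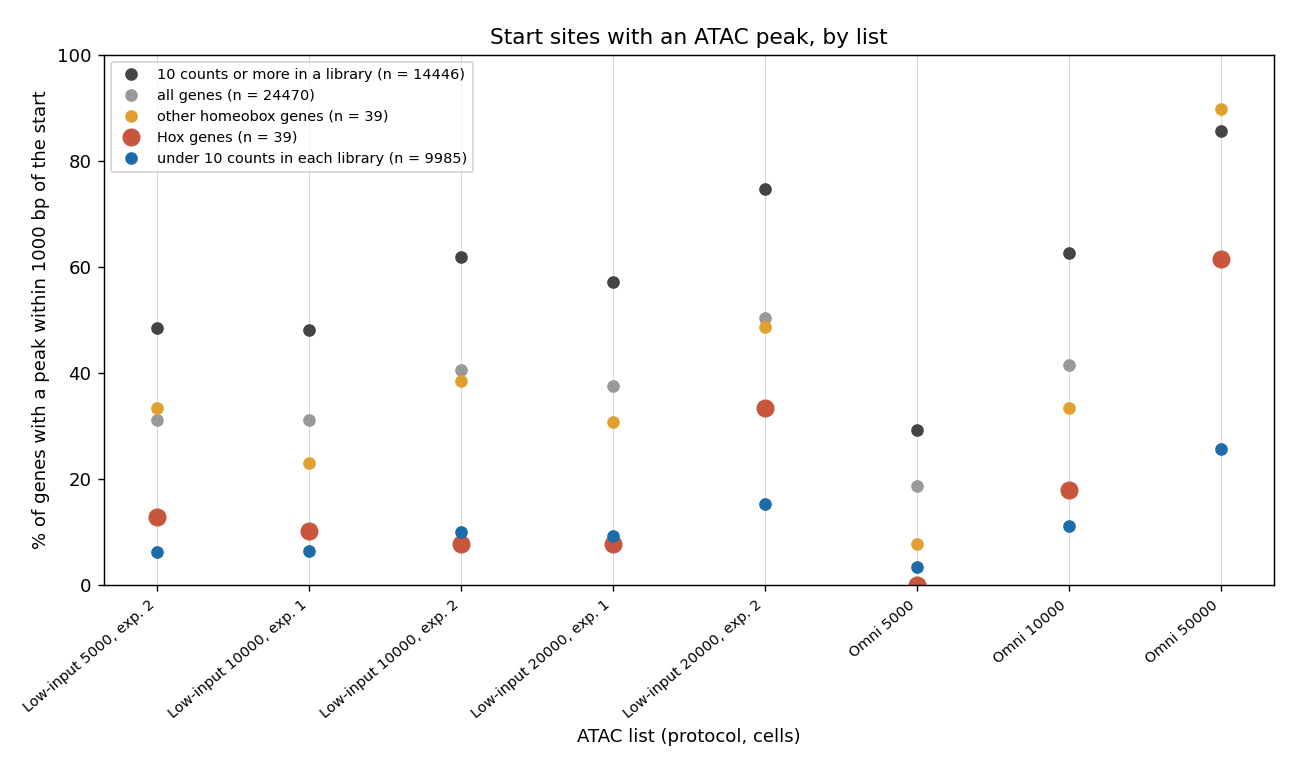
Share of genes with an ATAC peak within 1000 bp of the start (y axis, percent) in each of the 8 lists (x axis), for the Hox genes (red, larger points), other homeobox genes, all genes, and genes above and below 10 counts. Hox genes lie near the low-count genes in most lists and reach 61.5% in the list from 50000 cells, where their point covers that of all genes at 61.1%.

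Over the 5 low-input lists, 14 of 39 Hox genes had a start peak at least once, against 52.6% of all genes. Among these were Hoxa7 and Hoxa10, Hoxb4, Hoxc4, Hoxc6, Hoxc11 and Hoxc13, and Hoxd1, Hoxd3, Hoxd8, Hoxd9, Hoxd10 and Hoxd13. The Hoxd cluster held 6 of them and Hoxb 1. Of the 14, 7 were marked in the 20000-cell list of experiment 2 alone among low-input lists, and these were Hoxa10, Hoxb4, Hoxc4, Hoxd3, Hoxd8, Hoxd9 and Hoxd13. Without that list 7 Hox genes were left, 2 in Hoxd and 0 in Hoxb, against 46.8% of all genes. Hoxc13 was marked in all 5 low-input lists and in Omni-ATAC from 10000 and 50000 cells, Hoxd1 and Hoxd10 in 5 of the 8 lists. Hoxb9 and Hoxc9 were marked in Omni-ATAC from 10000 and 50000 cells and in no low-input list. Another 9 Hox genes were marked in the 50000-cell Omni-ATAC list alone, and 14 in no list, among them Hoxb7. These counts depend on the start used, since some starts in the count table lie downstream of the start of the longest RefSeq span, that of Hoxd10 by 7618 bp. From those RefSeq starts Hoxd10 was marked in 0 lists in place of 5, Hoxc4 in 0 in place of 2, Hoxc6 in 1 in place of 2 and Hoxb8 in 2 in place of 0. Hoxc13, whose start is the same, stayed at 7.

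Open starts and mRNA could be compared within the same cells, since each low-input ATAC list has its own mRNA library. Of the Hox genes with a start peak, 1 of 4 and 2 of 3 had 10 or more counts in the matched library in experiment 1, and 1 of 5, 1 of 3 and 1 of 13 in experiment 2. Among other genes with a start peak the share was 81.5% to 85.5%. Of the Hox genes without a start peak, 1 of 35 and 2 of 36 had 10 or more counts in experiment 1, and 2 of 34, 2 of 36 and 2 of 26 in experiment 2. The share was thus higher with a peak in 4 of the 5 pairs and equal, at 7.69%, in the 20000-cell pair of experiment 2. Hoxa7 had both a start peak and 11 counts in the 20000-cell library of experiment 1. This peak, 15 bp wide, began 989 bp inside the gene, at the edge of the 1000 bp limit, and a peak of the 10000-cell list of experiment 2 at 1075 bp was not counted. Hoxc13, with its peak in every low-input list, had 1 to 8 counts. Hoxd1 had a start peak in 3 low-input lists and 0 counts in each of the matched libraries, and Hoxc11, marked in 2 low-input lists, and Hoxb4, marked in 1, had 0 counts in all 5. Hoxb7 had 12 to 22 counts in 4 libraries while the peak nearest to its start in the count table was 2435 bp away in any list. Its longest RefSeq span begins 1042 bp upstream of that start, and no list had a peak within 1000 bp of the RefSeq start either. Hoxb13 had 21 and 22 counts in 2 libraries and a start peak only in the 50000-cell Omni-ATAC list, at 113 bp.

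Genes that act with or on Hox genes were followed in lists of the pathway. In experiment 2 against experiment 1, edgeR called 12.5% of all genes tested. It called 1 of 7 tested TALE cofactors (14.3%), the homeodomain partners that Hox proteins bind DNA with: Meis2 rose, from 0 and 0.335 CPM to 3.48 and 1.47 CPM (log2 difference 3.79 ± 0.99, edgeR adjusted p = 0.012). Of 2 tested caudal and ParaHox genes 1 was called (50.0%): Cdx1, an activator of Hox genes, rose from 0.728 and 2.41 CPM to 4.13 and 5.87 CPM (1.66 ± 0.50, edgeR adjusted p = 0.031). Its level in the 5000-cell library of experiment 2 was 1.91 CPM, inside the range of experiment 1. Both rest on few reads. The Meis2 call was lost without the 10000-cell library of experiment 2, and the Cdx1 call without either library of experiment 2 or without the 10000-cell library of experiment 1, and also with all 5 libraries and by DESeq2. Of 10 tested retinoic acid genes, 3 fell and 1 rose, so that 4 of 10 were called. The receptor genes Rarg and Rxra fell by 0.84 and 1.46 on the log2 scale and Crabp1, which binds retinoic acid in the cytoplasm, fell by 0.87. The Rarg and Crabp1 calls held in 10 of 10 alternatives; that of Rxra was lost without the 20000-cell library of experiment 2.

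Of 17 tested Polycomb genes, 0 rose and 3 fell (17.6% called, near the 12.5% of all genes): Suz12, a core subunit of the H3K27 methyltransferase, by 0.59, Pcgf6 by 0.46 and Cbx7, a reader of H3K27me3, by 0.40 on the log2 scale. Without the 10000-cell library of experiment 1, or without the 20000-cell one of experiment 2, 0 of these genes was called. Ezh2, the catalytic subunit, differed by 0.21 (edgeR adjusted p = 0.278). Of 10 tested Trithorax-type genes 2 were called (20.0%): Wdr5 fell by 0.48 and Ash2l, a partner subunit in the same methyltransferase complexes, rose by 0.36; neither was called without either library of experiment 2 or without the 20000-cell library of experiment 1, and Ash2l also not without the 10000-cell one. Of 7 tested genes among the other homeobox genes 2 were called (28.6%): Pax6, an eye and forebrain gene, rose from 0.146 and 0 CPM to 6.96 and 3.52 CPM (6.08 ± 0.83), and Gbx2, which stem cells express, rose by 0.51, a call lost without the 10000-cell library of either experiment or the 20000-cell one of experiment 2. The median log2 differences of the tested genes were 0.70 for TALE, 1.07 for caudal and ParaHox, -0.70 for retinoic acid, -0.10 for Polycomb, 0.15 for Trithorax and 0.51 for other homeobox genes, against 0.00 over all genes tested. Between 20000 and 10000 cells edgeR called none of the tested genes in any of these 6 lists, and 0 had an unadjusted p below 0.05. Pax6 is also one of the neural progenitor markers, whose summed level was higher in the libraries of experiment 2. Day and any culture difference between the experiments cannot be told apart.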

How the data were processed

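The authors deposited a table of raw counts, whole numbers for each gene in 5 mRNA libraries; its coordinates are on mm10, per the file headers. They also deposited ATAC peak intervals for each of the 8 ATAC libraries and, in a further file, for the series; none has a height or score. The submitters' processing notes name cutadapt, Bowtie2 2.1.0, SAMtools 1.3.1, Picard, bedtools 2.24.0, MACS2 2.1.1, STAR 2.5, featureCounts and Subread 1.5.0-p1, with no role or order. Peak threshold, strand use and treatment of multiply mapped reads are not given in the sources used here. No per-sample column of the table was left unmapped (0).

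CPM were counts scaled to the library total. Tests used edgeR 4.0.16 (TMM, filterByExpr, glmQLFit, glmQLFTest; R 4.3.3) on the 10000- and 20000-cell libraries, with Benjamini-Hochberg adjustment over all genes tested and a threshold of 0.05; SE are derived from the quasi-likelihood F statistic. DESeq2 1.42.0 was an alternative. The scripts were tested on simulated data. The filter on low values kept 3 Hox genes. The 2 experiments were on different days, per the series' design text, so the experiment number pairs them: across 11575 genes, the log2 difference between days at 10000 cells had a Pearson r of 0.562 with that at 20000 cells (genes are not replicates). No 2 mRNA libraries were duplicates: the smallest chi-square per gene between 2 of them was 10.7. Peaks were assigned to windows and starts with Python 3.11.15 (pandas 2.3.3, scipy 1.17.1), start sites being the 5′ end of the table's coordinates. All 39 Hox genes matched RefSeq by gene ID, 26 with the same start.

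Hox genes with 10 counts in a library, or a start peak in at least 1 low-input list or 2 Omni-ATAC lists, are named with values, as are the sites found in the most lists, list genes with an adjusted p below 0.05, and cluster neighbours with 10 counts. Hottip, Hotair and Ezh2 were named after their values were seen. Some items are not reported here, and counts over all 39 Hox genes include them. The members and lists were chosen with earlier results of these data known.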

Additional observations from a re-analysis of the deposited data

Results flagged for a closer look

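In 4 measures the 20000-cell library moved away from the 10000-cell library in opposite directions in the 2 experiments, with 1 pair of libraries per experiment, so that the difference between experiments was not tested. Summed Hox CPM was 3.95 higher from 20000 cells in experiment 1 and differed by -1.01 in experiment 2. Peaks in the 4 Hox windows differed by -1 in experiment 1 and by 31 in experiment 2. Hoxb7 differed by -0.29 CPM in experiment 1 and by 0.459 CPM in experiment 2, and Hoxb13 by 1.25 CPM and by -1.01 CPM.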

How the results depend on the processing

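Neither comparison called a Hox gene under any alternative run (10 for each comparison, 0 to 0 when leaving out 1 library), though DESeq2 gave no adjusted p for Hoxb7 and Hoxb13 between experiments. With the experiment as a block, which pairs libraries of a day, the comparison of cell numbers gave log2 differences of 0.18 for Hoxb13 and 0.59 for Hoxb7 (edgeR adjusted p = 0.998 for each), and 4 genes in all were called (0.0319%) in place of 0; the block changed no Hox call. Signs of the uncalled differences did turn. Between experiments, Hoxb13 became 0.0069 with DESeq2, 0.010 with no filter on low counts, 0.075 with cell number as a term, and ranged from -1.28 to 1.93 when leaving out 1 library. Between cell numbers, Hoxb13 ranged from -1.20 to 1.99 and Hoxb7 from -0.65 to 2.35 when leaving out 1 library.

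The number of Hox genes at the detection minimum was 7 at 10 counts, 31 at 1 count and 3 at 1 CPM, and 6 to 7 when leaving out 1 library. Hox starts with a low-input peak numbered 14, against 7 to 14 when leaving out 1 low-input list (chosen after seeing the data; 7 without the 20000-cell list of experiment 2), 22 within 2500 bp, 6 with peaks of 50 bp or more, 1 with the widest 9097 peaks of each list and 3 in the unified list; for the 50000-cell Omni-ATAC list, 24 fell to 3 with the widest 9097 peaks. The trend of peaks with cell number went from 6 to 7 of 7 pairs with no flank, a flank of 50000 bp, intervals of 50 bp or more, or covered length (exact permutation p = 0.0278 each), and was 4 of 7 with the widest peaks (p = 1) and, chosen after seeing the data, 4 of 5 without the 50000-cell Omni-ATAC list (exact permutation p = 0.417). Sites in 5 or more lists numbered 9 whether peaks were joined at 0, 100 or 500 bp. The cause of these shifts was not tested. Low counts limit the Hox values given here.

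Between experiments, the call for Cdx1 was lost in 5 of 10 alternatives, for Pcgf6 and Cbx7 in 6 each, for Suz12 in 2, for Wdr5 in 3, for Ash2l in 5 and for Gbx2 in 3, all with the same sign, while Pax6 was called in 10 of 10. With library size alone as the scaling, 1 Polycomb and 1 Trithorax gene were called, in place of 3 and 2.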
